A study of Mus musculus with 7 samples.

Results

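Cholesterol genes were examined on 7 single-colour Affymetrix arrays of mouse testis, primary Sertoli cells and the TM4 line. The 34 genes, chosen by symbol, are enzymes of sterol synthesis, the SREBP and LXR regulators, and genes of sterol uptake, handling and efflux. Of these, 31 had a probe set annotated to them alone in the table of the 5 Sertoli and TM4 arrays, among 18193 genes, and 26 of the same 31 in the table of the 2 testis arrays, among 8251 genes. Acat2, Soat1 and Nr1h2 had none in either table and were not analysed here. The groups were whole testis of ERM knockout and of wild-type mice at 4 weeks, primary Sertoli cells of ERM knockout mice at 10 weeks and at 4 weeks and of wild-type mice at 4 weeks, and TM4 cells with and without transfection of ERM. ERM is the ETS family transcription factor encoded by Etv5, and the study's title names the loss of germ stem cells in its absence as the subject. TM4 is a cell line derived from mouse Sertoli cells, the somatic cells that nurse germ cells in the seminiferous tubule. The mutated allele, the strain, the transfected construct and the number of animals behind each array were not given in the sources used here. Each group was 1 array, so no difference had a replicate check and no test across samples was possible.

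Cells make cholesterol from acetyl-CoA through mevalonate, farnesyl diphosphate, squalene and lanosterol. When sterol in the endoplasmic reticulum runs low, SCAP escorts SREBP2 to the Golgi, where it is cut to release a transcription factor that activates nearly the whole enzyme series. When sterol is plentiful, INSIG proteins hold SCAP back, and oxysterols and some sterol intermediates activate the LXR receptors, whose targets Abca1 and Abcg1 export cholesterol. In the testis, Sertoli cells also take up lipoprotein cholesterol and engulf dying germ cells, and maturing germ cells express several of the synthesis enzymes themselves.

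Values are probe set intensities scaled so that the trimmed mean of each array was 500, and a scaled value under 100 was treated as at the floor. A gene is given by its brightest probe set unless another is named, and a gene was counted as higher or lower at 2-fold or more. Probe sets are not comparable in level with each other, so each gene was compared only with itself across arrays. At least the floor was reached by 72.0% to 77.0% of probe sets on the Sertoli and TM4 arrays, by 82.1% on the knockout testis array and by 82.2% on its wild-type counterpart. Bright genes with several probe sets gave a standard deviation per probe set, on the log2 ratio, of 0.25 for the testis pair, 0.20 for the 4-week Sertoli pair, 0.15 for TM4, 0.25 for the knockout ages, 0.18 for knockout cells at 10 weeks over wild type and 0.46 for Sertoli cells over TM4. This spread lies within an array pair and does not measure animals or cultures. The comparisons among the Sertoli and TM4 arrays share arrays with each other. All 3 Etv5 probe sets read higher on both Sertoli arrays labelled ERM knockout than on the wild-type array, with ratios of 1.23 to 1.56 at 10 weeks and 1.05 to 1.28 at 4 weeks. Where these probe sets lie relative to the mutation was not given in the sources used here, so they do not check the labels, and every direction given is between the arrays as their labels name them. Sertoli markers were bright in the primary cells. Sox9, the Sertoli cell fate factor, read 6380 on the array labelled knockout at 10 weeks, 6439 on that at 4 weeks and 5220 in wild type. On the untransfected TM4 array 2 of 15 Sertoli markers were below the floor, Sox9 at 95.1 and Wt1 at 97.4, and their summed intensity was 17328 against 63070 in wild-type Sertoli cells.

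In primary Sertoli cells at 4 weeks, most synthesis enzymes differed by less than 1.5-fold between the arrays. On the array labelled ERM knockout, Srebf1 was at least 2-fold higher, Scarb1 at least 1.5-fold higher and Apoe at least 2-fold lower. Srebf1, the SREBP that mainly drives fatty acid genes, read 1244 on the knockout array and 563 in wild type, a 2.21-fold difference. Scarb1, the receptor that takes cholesterol from HDL, read 3635 and 1979 on the same arrays, a 1.84-fold difference, and its other probe sets gave log2 ratios of 1.05 and 0.88. Apoe, the lipoprotein that carries cholesterol out of macrophages and other cells, read 276 against 1949 in wild type, 7.07-fold lower. Srebf1 and Apoe had a single probe set each on this array design. By count, 1 of 31 genes was at least 2-fold higher, where 0.681% of all 15860 measured genes were, and 1 was at least 2-fold lower, where 3.18% were. At 1.5-fold these counts were 2 and 3, against 4.59% and 9.57% of all genes. The median log2 ratio of the 31 was -0.01, and that of all measured genes -0.02.

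**Figure D1:**
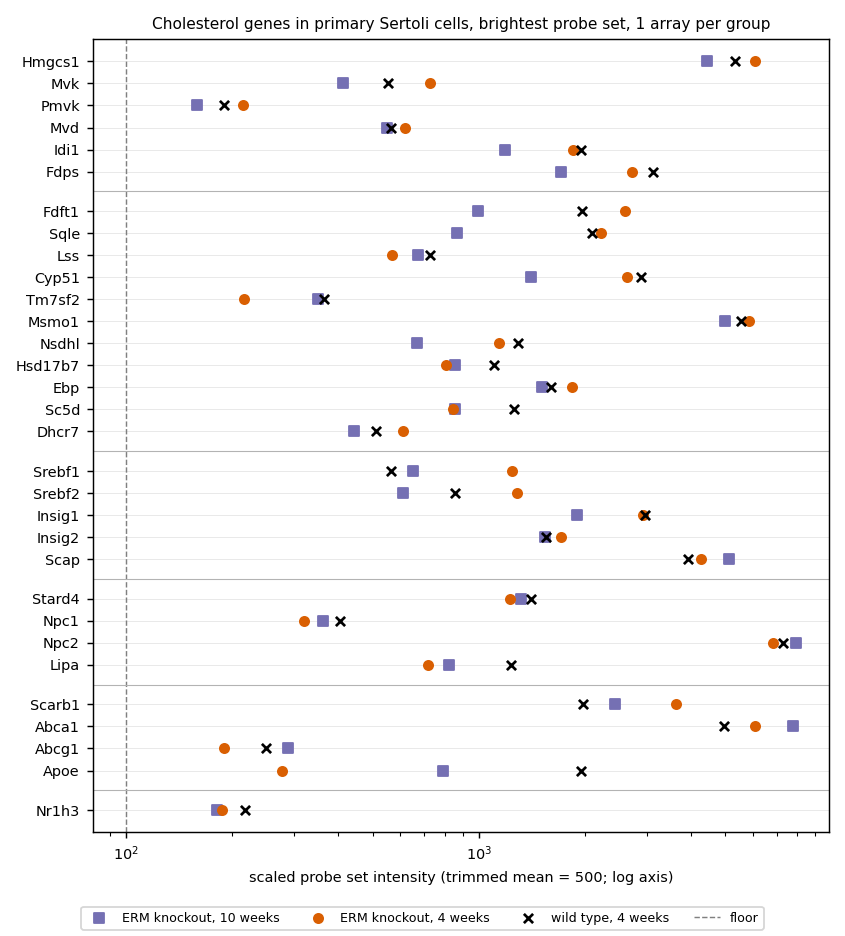
Scaled intensity (log axis) of the brightest probe set of each of 31 cholesterol genes on the 3 primary Sertoli arrays, grouped by role, with the floor as a dashed line. The array of ERM knockout cells at 10 weeks is the lowest of the 3 for all 6 mevalonate enzymes, and Apoe reads 276 on the knockout array at 4 weeks against 1949 in wild type.

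Among the mevalonate enzymes at 4 weeks, log2 ratios of knockout over wild type lay between -0.19 for Fdps, which makes farnesyl diphosphate, and 0.40 for Mvk, mevalonate kinase. Mvk read 730 on the knockout array and 554 in wild type, and its other probe set gave 0.35 on the log2 scale. Hmgcs1, which condenses acetoacetyl-CoA with acetyl-CoA, read 6089 and 5323. On the brightest probe sets no mevalonate enzyme differed by as much as 1.5-fold, although a dim Fdps probe set stood at -0.58.

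Of the 11 enzymes from squalene onward, 10 were within 1.5-fold at 4 weeks. The exception was Tm7sf2, a sterol C14 reductase, which read 216 on the knockout array and 363 in wild type. Sc5d, which introduces a double bond into the sterol ring, had a log2 ratio of -0.58 at 844 against 1260. Its 2 other probe sets disagreed in size, at -1.46 and -0.11. Fdft1, squalene synthase, read 2597 against 1968, while its second bright probe set read nearly alike on both arrays with a log2 ratio of -0.05. Lss, the cyclase that forms lanosterol, was at -0.36 on each of its 2 brighter probe sets.

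The regulators other than Srebf1 differed less at 4 weeks. Srebf2, which encodes the SREBP of the cholesterol enzymes, read 1281 on the knockout array and 856 in wild type, and its 2 probe sets gave log2 ratios of 0.58 and 0.40. Insig1, itself an SREBP target, read 2928 and 2958, and Scap 4259 and 3930. All 4 genes of intracellular handling had ratios below 0, where 51.8% of all measured genes did, and Lipa alone was past 1.5-fold. Lipa, the lysosomal enzyme that frees cholesterol from its esters, read 719 against 1233 in wild type, with log2 ratios of -0.45 and -0.17 on its other probe sets. Npc1 and Npc2, which move that cholesterol out of the lysosome, had log2 ratios of -0.33 and -0.09, and the sterol carrier Stard4 -0.20, although another Stard4 probe set stood at 0.28. Abca1 read 6081 against 4957 and Abcg1 190 against 249. Nr1h3, the LXR alpha receptor, read 187 and 217.

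Macrophage markers moved with Apoe in this comparison, and macrophages express much Apoe. Of 14 measured markers 6 were at least 2-fold lower on the knockout array at 4 weeks, where 3.18% of all genes were. The summed scaled intensity of the markers was 6750 against 15029 in wild type, with 2 and 1 of 15 markers below the floor. On the array of knockout cells at 10 weeks the sum was 10866 and Apoe read 794. The lysosomal protease Ctss followed the same order, at 1830 in knockout cells of 10 weeks, 468 in knockout cells of 4 weeks and 3801 in wild type. On these arrays fewer cells of a type and less RNA per cell cannot be told apart, and the part of macrophages in the Apoe and Lipa values was not tested. Control probe sets for 18S ribosomal RNA were also high on the knockout array at 4 weeks, with 4551 for the 5' probe set against 349 in wild type, and their part was not tested either.

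**Figure D2:**
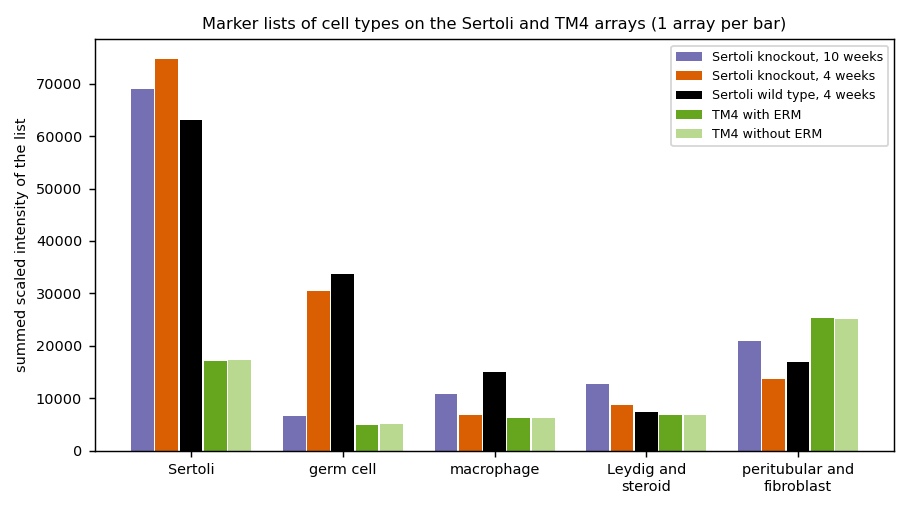
Summed scaled intensity of marker lists of 5 cell types on the Sertoli and TM4 arrays, with 1 array per bar. The germ cell sum is 6538 on the array of knockout Sertoli cells at 10 weeks against 30470 at 4 weeks, and the macrophage sum is lowest among the Sertoli arrays on the knockout array at 4 weeks.

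Between the knockout ages, 13 of 17 enzymes of cholesterol synthesis read lower at 10 weeks than at 4 weeks, where 53.2% of all measured genes did. There was no wild-type Sertoli array at 10 weeks, so a difference with age alone and one particular to the knockout cannot be told apart. Of the 17, 2 were at least 2-fold and 7 at least 1.5-fold lower. Sqle, the squalene epoxidase, read 866 at 10 weeks and 2223 at 4 weeks, 2.57-fold lower. Fdft1 read 993 and 2597, 2.62-fold lower, and its second bright probe set had a log2 ratio of -1.07. Its 2 dim probe sets went the other way, at 0.05 and 0.23. Srebf2 read 610 and 1281, 2.10-fold lower, and its other probe set stood at -0.45 on the log2 scale. Apoe stood on the other side at 794 and 276, 2.88-fold higher. The array at 4 weeks is also the one set against wild type above. Its 18S control probe sets were high in this pair too, with 4551 for the 5' probe set against 352 at 10 weeks, and their part was not tested. By count, 3 of 31 genes were at least 2-fold lower, against 3.51% of 15849 measured genes, and 1 was at least 2-fold higher, against 4.19%. At 1.5-fold, 10 were lower and 3 higher, where 10.3% and 10.9% of all genes were. The median log2 ratio was -0.23 over the 31 genes and -0.03 over all measured genes.

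The lower readings covered the whole mevalonate series. All 6 of its enzymes, with a median log2 ratio of -0.55, were below 0 between the knockout ages, where 53.2% of all genes were. Mvk read 413 at 10 weeks and 730 at 4 weeks, and its other probe set stood at -0.61 on the log2 scale. Idi1, which isomerises isopentenyl diphosphate, read 1191 and 1856, and its other probe set stood at -0.48. Fdps read 1715 and 2723, although its dim second probe set went the other way at 0.30. Hmgcs1 was at -0.45, and its 3 other probe sets above the floor lay between -0.32 and -0.58. Mvd, mevalonate diphosphate decarboxylase, was at -0.17 on its brightest probe set and at -0.97 on its other. Pmvk, phosphomevalonate kinase, read 159 and 214.

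Of the 11 enzymes from squalene onward, 7 were below 0 between the knockout ages, where 53.2% of all measured genes were. At least 1.5-fold lower were 4 of the 11, where 10.3% of all measured genes were. Cyp51 read 1406 at 10 weeks and 2639 at 4 weeks, and its other probe sets had log2 ratios of -0.61 and -0.34. Nsdhl, of the C4 demethylation complex, read 667 and 1143. Msmo1, which acts in the same complex, read 5000 and 5846 and thus differed much less. Dhcr7, the last enzyme of one branch, was at -0.46 and Ebp, the sterol isomerase, at -0.29. Tm7sf2 was the exception past 1.5-fold, at 351 against 216. Lss was at 0.25 on its brightest probe set and at -0.81 on another probe set, so its direction is unsettled. Hsd17b7 and Sc5d were at 0.09 and 0.02. Another Sc5d probe set stood at 1.20, at 347 against 151, and another of Hsd17b7 at -0.33.

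Of the 5 SREBP regulators, Srebf2 was at least 2-fold lower at 10 weeks, where 3.51% of all measured genes were. Srebf1 and Insig1 were at least 1.5-fold lower, where 10.3% of all measured genes were. Srebf1 read 653 against 1244 at 4 weeks, and Insig1 1899 against 2928. Insig2 was at -0.14, with another probe set at 0.27, and Scap, the sterol sensor, was at 0.27 on its brightest probe set. The handling genes Stard4, Npc1, Npc2 and Lipa lay between 0.10 and 0.21 on their brightest probe sets, but another Stard4 probe set stood at -0.32. Among the transporters, Abca1 read 7765 at 10 weeks and 6081 at 4 weeks, and its 3 probe sets gave log2 ratios of 0.35, 0.64 and 0.47. Scarb1 went the other way on all 3 of its probe sets, at -0.58, -0.77 and -0.63. The 2 probe sets of Abcg1 disagreed, at 0.59 and -0.51, so its direction is unsettled.

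**Figure D3:**
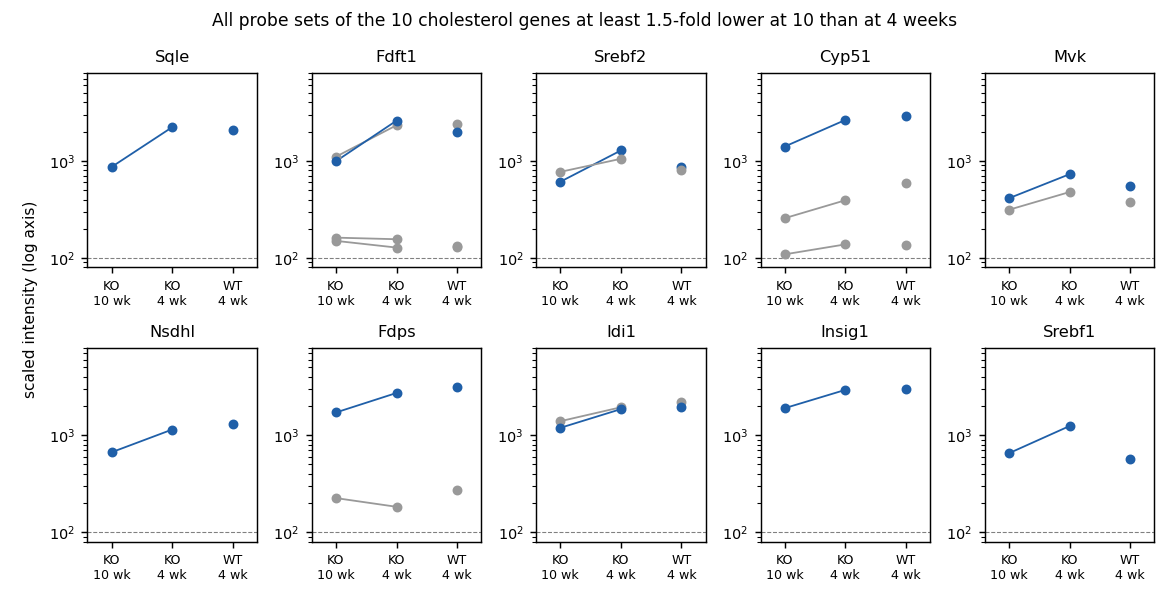
Scaled intensity (log axis) of every probe set of the 10 cholesterol genes at least 1.5-fold lower in knockout Sertoli cells at 10 than at 4 weeks, with the brightest probe set in blue, the others in grey and the floor dashed. KO is ERM knockout and WT wild type, 1 array each. Sqle reads 866 at 10 weeks, against 2223 in knockout cells at 4 weeks and 2100 in wild type at 4 weeks, whereas Srebf1 differs in that its wild-type reading of 563 is below both knockout readings.

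Set against wild-type cells of 4 weeks, the array of knockout cells at 10 weeks was again lower for the enzymes. This comparison shares its first array with that between the knockout ages, and it differs in age as well as genotype, which cannot be told apart. All 17 enzymes were below 0, where 53.4% of all measured genes were, although Mvd (-0.04) and Tm7sf2 (-0.05) were on the other side with quantile normalization. Sqle read 866 against 2100 in wild type, Cyp51 1406 against 2885 and Fdft1 993 against 1968. On its second bright probe set Fdft1 had a log2 ratio of -1.13, but on its dim ones 0.31 and 0.16. Nsdhl read 667 against 1291 and Fdps 1715 against 3115. The count at least 2-fold lower was 3 of 31 (Sqle, Cyp51 and Apoe), where 4.22% of all genes were, and none was at least 2-fold higher, where 1.62% were. At 1.5-fold, 8 were lower and 1 higher, against 10.0% and 6.3% of all genes. The gene higher was Abca1, at 7765 against 4957, with log2 ratios of 0.75 and 0.81 on its other probe sets. Srebf1 and Scarb1 stood nearer to wild type at 10 weeks than at 4 weeks, with log2 ratios of 0.22 and 0.30. Over the 3 Sertoli arrays, the 10-week array was the lowest for 13 of 17 enzymes and the highest for none, where it was the lowest for 37.1% and the highest for 32.0% of all measured genes.

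Germ cell markers moved in the same direction as the enzymes. Of 14 such markers in knockout Sertoli cells, 11 were at least 2-fold lower at 10 than at 4 weeks, against 3.51% of all genes. The summed intensity of the markers was 6538 against 30470, with 1 of 14 below the floor at 10 weeks and none at 4 weeks. Ddx4, a germ cell RNA helicase, read 268 and 2124, and the meiotic gene Sycp3 read 431 and 2708. The sum in wild-type cells of 4 weeks was 33620. Leydig and steroid synthesis markers were higher at 10 weeks, 5 of 7 by at least 1.5-fold, where 10.9% of all measured genes were. These markers summed to 12680 at 10 weeks, against 8634 at 4 weeks and 7437 in wild type. Among them Star, which carries cholesterol into mitochondria, was 2.25-fold and the steroid enzyme Cyp17a1 10.1-fold above wild type at 10 weeks. Most Sertoli markers differed little between the knockout ages, with 11 of 15 within 1.5-fold and a median log2 ratio of -0.09. The part of germ cells and Leydig cells in the enzyme values was not tested.

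Promoters are shown for Srebf2, Cyp51, Nsdhl and Insig1, which were lower together at 10 weeks, and for Hmgcs1, which differed less. Each sequence, from RefSeq on build GRCm38.p6, runs 5' to 3' in the direction of the gene from 250 bases before to 50 bases after its start. Capitals mark matches, on either strand, to CCAAT, the NF-Y box that accompanies SREBP sites, and to TCACNCCA, a form of the SREBP site. No match overlaps another in these windows.
Srebf2: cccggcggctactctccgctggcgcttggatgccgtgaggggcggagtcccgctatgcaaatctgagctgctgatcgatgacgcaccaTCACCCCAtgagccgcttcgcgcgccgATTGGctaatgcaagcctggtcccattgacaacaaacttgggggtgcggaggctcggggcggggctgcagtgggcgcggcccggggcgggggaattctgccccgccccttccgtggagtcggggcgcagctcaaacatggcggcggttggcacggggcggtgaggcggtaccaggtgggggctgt
Hmgcs1: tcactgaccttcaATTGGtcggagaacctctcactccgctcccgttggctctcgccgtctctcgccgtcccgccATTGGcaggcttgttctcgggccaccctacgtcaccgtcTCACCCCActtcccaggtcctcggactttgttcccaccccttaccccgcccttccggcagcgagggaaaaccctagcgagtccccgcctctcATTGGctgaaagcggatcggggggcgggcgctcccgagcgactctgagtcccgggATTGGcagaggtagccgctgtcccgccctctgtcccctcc
Cyp51: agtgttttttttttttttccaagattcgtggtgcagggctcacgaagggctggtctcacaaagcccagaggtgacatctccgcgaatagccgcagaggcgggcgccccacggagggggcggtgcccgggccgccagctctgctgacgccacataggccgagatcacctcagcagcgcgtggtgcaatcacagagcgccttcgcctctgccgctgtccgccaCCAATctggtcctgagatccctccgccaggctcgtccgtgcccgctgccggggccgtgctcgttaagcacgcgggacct
Nsdhl: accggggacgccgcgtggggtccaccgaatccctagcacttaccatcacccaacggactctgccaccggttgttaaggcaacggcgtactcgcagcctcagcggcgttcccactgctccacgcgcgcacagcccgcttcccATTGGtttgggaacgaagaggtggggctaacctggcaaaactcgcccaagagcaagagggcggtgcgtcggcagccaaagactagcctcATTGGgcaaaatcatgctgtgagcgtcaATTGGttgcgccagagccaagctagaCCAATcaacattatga
Insig1: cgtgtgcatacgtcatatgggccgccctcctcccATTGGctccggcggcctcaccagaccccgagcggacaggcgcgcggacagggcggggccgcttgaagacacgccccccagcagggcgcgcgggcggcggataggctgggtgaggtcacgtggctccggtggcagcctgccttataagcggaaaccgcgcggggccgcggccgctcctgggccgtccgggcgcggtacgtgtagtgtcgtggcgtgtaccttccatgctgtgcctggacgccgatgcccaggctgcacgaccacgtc
The windows lie at chr15:82147019-82147318 (plus strand) for Srebf2, chr13:119690101-119690400 (plus) for Hmgcs1, chr5:4104648-4104947 (minus) for Cyp51, chrX:72918271-72918570 (plus) for Nsdhl and chr5:28071162-28071461 (plus) for Insig1. Srebf2 and Hmgcs1 each hold 1 TCACNCCA match. CCAAT matches number 4 in Hmgcs1, 4 in Nsdhl and 1 in each of the others.

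Of the 34 genes, 27 had such windows, 38 in all, while Sqle, Fdft1, Fdps, Stard4, Npc1, Abcg1 and Scarb1 had none. TCACNCCA was found in 4 of the 38 windows (Apoe, Hmgcs1, Msmo1 and Srebf2) and in 4.36% of 32851 windows of all genes. CCAAT was found in 22 of the 38 and in 37.4% of all windows. The LXR direct repeat, searched as AGGTNANNNNAGGTCA, was in none of the 38 and in 14 of all windows. A match of letters is a description and not a bound site.

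In whole testis at 4 weeks, Abca1 was at least 2-fold and Apoe and Nr1h3 at least 1.5-fold higher on the array labelled ERM knockout. Most synthesis enzymes differed by less than 1.5-fold. Abca1 read 788 on the knockout array and 339 in wild type, 2.32-fold higher, but its other probe set read 472 and 407. Apoe read 1685 and 946, 1.78-fold higher, and its other probe set was below the floor on both arrays. Nr1h3 read 221 and 125, 1.77-fold higher and near the floor. Of 24 genes measured, 1 was at least 2-fold higher, where 0.532% of 7515 measured genes were, and none was at least 2-fold lower, where 0.852% were. At 1.5-fold, 4 were higher and 1 lower, against 5.04% and 4.34% of all genes. The median log2 ratio was 0.15 over the 24 genes and -0.01 over all measured genes.

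Of the 15 testis enzymes measured, 13 were within 1.5-fold, with a median log2 ratio of 0.11. Ebp was the enzyme higher past that size, at 518 on the knockout array and 331 in wild type. Lss was at least 1.68-fold lower, since it read 168 in wild type and was below the floor in the knockout. Fdft1 read 2323 and 2051, Sqle 1269 and 1177, and Fdps 1349 and 1285. Cyp51 was dim on this array design, at 179 and 154. Msmo1, Mvk and Hmgcs1 had log2 ratios of 0.43, 0.41 and 0.37, but the other Mvk probe set read 524 on the knockout array and 533 in wild type. Scarb1 read 1458 and 1136 and Srebf1 707 and 641. Hsd17b7 and Insig1 were below the floor on both arrays.

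Sertoli markers also read higher on the knockout testis array. Of 13 measured, 7 were at least 1.5-fold higher, where 5.04% of all measured genes were. Amh was lower past that size, where 4.34% of all genes were. The summed intensity of the Sertoli markers was 23898 on the knockout array and 17535 in wild type. The macrophage sum was 5408 and 4785, with 2 of 14 markers at least 1.5-fold higher, against the same 5.04% of all genes. Leydig and steroid synthesis markers summed to 12929 and 11355. Peritubular and fibroblast markers summed to 9174 and 6981, with 2 of 9 measured at least 2-fold higher, against 0.532% of all genes. Germ cell markers summed to 67314 and 63821, although Dazl and Stra8, of 12 measured, were at least 2-fold lower, against 0.852% of all genes. The part of these cell types in the Abca1, Apoe and Nr1h3 values was not tested.

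**Figure D4:**
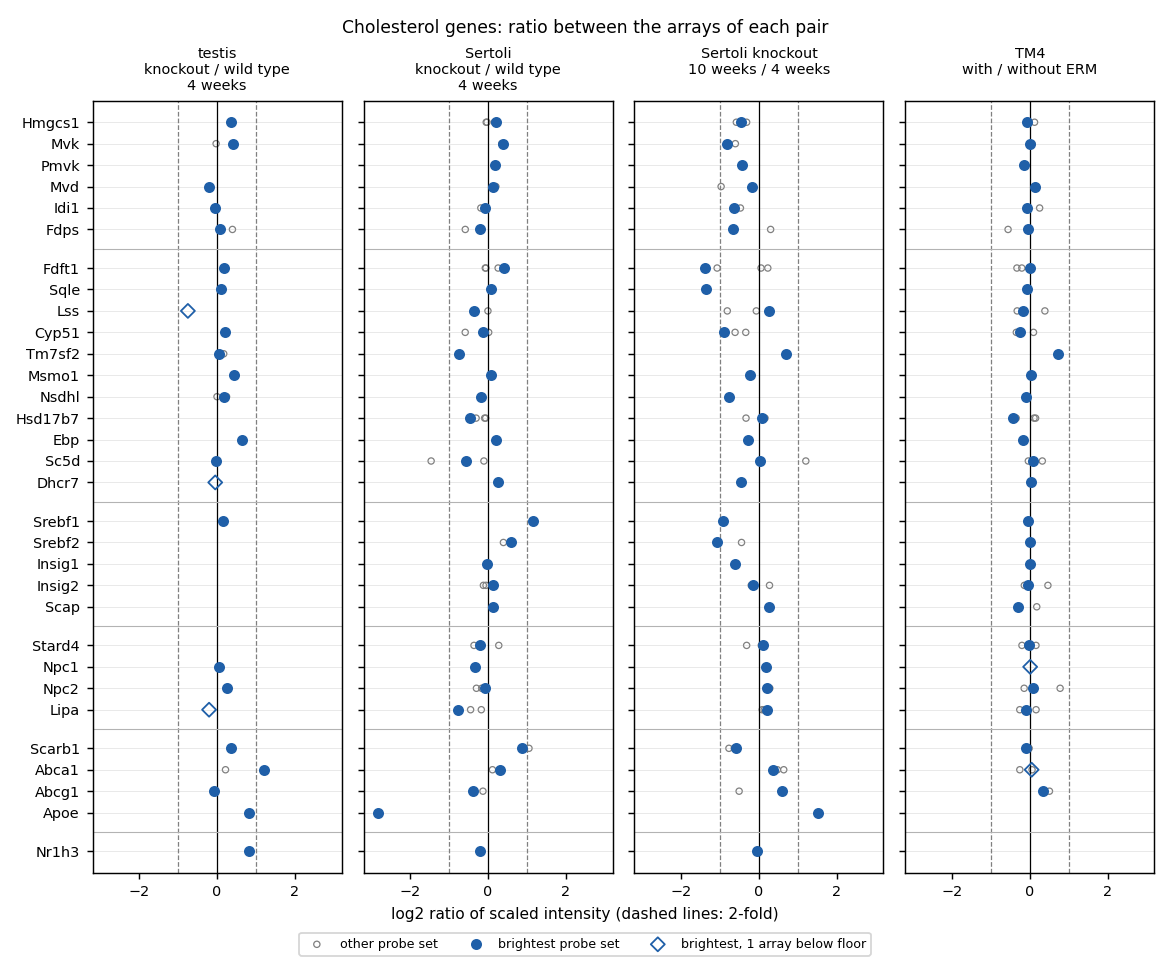
Log2 ratio of scaled intensity for each cholesterol gene in 4 array pairs, with the first-named group over the second, the brightest probe set as a filled point, other probe sets as open circles and dashed lines at 2-fold. Diamonds mark a ratio with 1 array below the floor. The enzymes lie left of 0 mainly in the pair of knockout Sertoli ages, and TM4 has no gene past 2-fold.

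In TM4 cells with and without ERM, most cholesterol genes read nearly alike. The 3 Etv5 probe sets read 1.13-fold, 1.17-fold and 1.51-fold higher on the array labelled as transfected. None of 29 measured genes was at least 2-fold higher or lower, where 0.303% and 0.421% of 16158 measured genes were. At 1.5-fold, 1 was higher and none lower, against 2.05% and 2.35%. That gene was Tm7sf2, at 252 with and 153 without ERM, both near the floor. The 17 enzymes had a median log2 ratio of -0.06. Srebf2 read 1139 with and 1138 without ERM, Srebf1 843 and 867, and Insig1 2573 and 2558. Scarb1 read 1376 and 1485. Abcg1 was at 0.33, at 2047 with and 1624 without ERM, and at 0.50 on its other probe set. Apoe and Nr1h3 were below the floor on both arrays, and Abca1 read 103 and 90.0 on its brightest probe set, 353 and 340 on the second and 124 and 148 on the third. The pair therefore gives no ratio for Apoe.

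Wild-type primary Sertoli cells and untransfected TM4 cells differed in both directions among the genes of sterol handling and export, with Abca1, Apoe, Npc1 and Lipa higher and Abcg1 lower in Sertoli cells on their brightest probe sets. Abca1 read 4957 in Sertoli cells and 90.0 in TM4, at least 49.6-fold higher, but its other probe sets gave log2 ratios of 1.65 and 1.72. Apoe read 1949 and 79.6, at least 19.5-fold higher. Abcg1, which loads cholesterol onto HDL, went the other way at 249 and 1624, 6.53-fold lower, with no such difference on its second probe set (255 and 243). Npc1 read 403 and 75.5, at least 4.03-fold higher, and Lipa 1233 and 463. Nr1h3 read 217 and 94.9, at least 2.17-fold higher. The other probe sets of Lipa had log2 ratios of 0.45 and -0.15. Of 31 genes, 9 were at least 2-fold higher in Sertoli cells, where 17.8% of 16916 measured genes were, and 2 were at least 2-fold lower, where 16.1% were. At 1.5-fold, 13 were higher and 5 lower, against 26.7% and 28.4% of all genes.

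The 17 enzymes had a median log2 ratio of -0.11 between the primary cells and the line, and 13 of the 17 were within 2-fold. Hmgcs1 read 5323 in Sertoli cells and 2642 in TM4, and its 3 other bright probe sets gave log2 ratios from 1.06 to 1.84. Pmvk read 189 and 449. Sqle read 2100 and 3304 and Fdps 3115 and 4826. The primary and TM4 arrays had no common scale, and on the deposited values the median over all genes was 0.63 in place of -0.08. Of all 2-fold calls, 83.2% were then higher in Sertoli cells, in place of 52.6%, and 11 members, Sqle, Fdps, Cyp51, Srebf1 and Srebf2 among them, stood on the other side of 0. Scap read 3930 and 1532, Tm7sf2 363 and 153, and Hsd17b7 1105 and 515. Lss was at -0.25 on its brightest probe set and at 2.46 on another, so its direction is unsettled. Scap had a dim second probe set that went the other way, and those of Hsd17b7 ranged from -0.68 to 0.93. Macrophage and germ cell markers differed too, with sums of 15029 and 33620 on the Sertoli array and 6216 and 5075 on the TM4 array, and their part in these values was not tested.

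**Figure D5:**
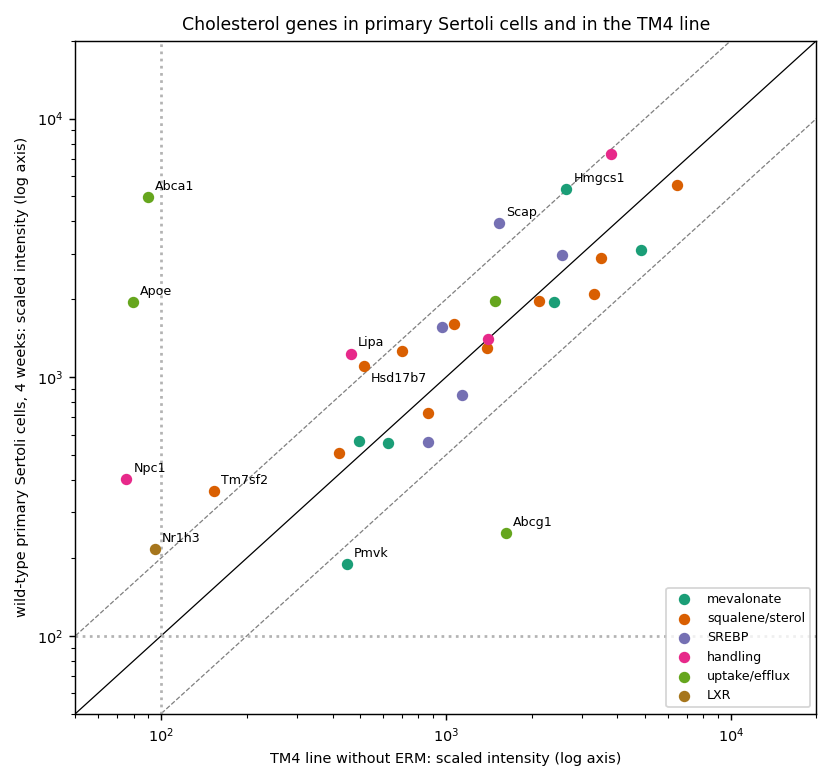
Scaled intensity (log axes) of 31 cholesterol genes on the wild-type primary Sertoli array (vertical) against the TM4 array without ERM (horizontal), coloured by role, with lines of equality (solid), 2-fold (dashed) and the floor (dotted). Most enzymes lie between the dashed lines, Abca1 and Apoe lie far above them and Abcg1 far below.

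Other genes of lipid and sterol metabolism were taken from lists outside the 34. In Sertoli cells at 4 weeks, 6 of 31 genes of sterol sensing, trafficking and oxysterol metabolism were at least 2-fold lower on the knockout array, where 3.18% of all measured genes were, and none was higher, where 0.681% were. Cav1, the caveolar coat protein, read 750 on the knockout array and 3710 in wild type. Apoc1, which lies beside Apoe in the genome, read 112 and 523, Plin2, a coat protein of lipid droplets, 833 and 2351, and the phospholipid transfer protein Pltp 666 and 1516. Osbpl5 and Cyp7b1 were at least 2.44-fold and 2.23-fold lower. Of 18 lipid and isoprenoid genes, the fatty acid elongase Elovl6 alone was past 2-fold, at 211 against 515, and the median log2 ratio was 0.19.

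Between the knockout ages, 3 of 30 sterol trafficking genes were at least 2-fold higher at 10 weeks, against 4.19% of all measured genes, and none was lower, against 3.51%. These were Apoc1 at 770 against 112, Mylip, an LXR-induced ubiquitin ligase, at 1361 against 582, and Cav1 at 1674 against 750. Among the 18 lipid and isoprenoid genes none was past 2-fold, and their median log2 ratio was -0.11, against -0.45 for the 17 sterol enzymes. In testis none of 20 and 13 genes of these lists was past 2-fold, nor was any of 32 and 17 in TM4. Between Sertoli cells and TM4, Pltp was 9.08-fold and Lpin1 at least 7.92-fold higher in Sertoli cells, and the lipoprotein receptor Vldlr was 16.3-fold lower at 159 against 2603.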

How the data were processed

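Per the labels, RNA came from 7 groups of 1 array each. The authors deposited 1 linear intensity per probe set and array, none below 1. The software and scaling behind them were not given in the sources used here. Each array was scaled to a mean of 500 over its probe sets from the 2nd to the 98th percentile, controls left out. Values under 100 were raised to 100 ahead of the log2 ratios, which makes a ratio with 1 such value a bound. Each gene took its brightest probe set by the mean over the arrays of its table, among those annotated to exactly 1 gene. Precision is limited by the number of arrays. All 34 members could be named, and other genes only from fixed lists, when past 2-fold or as cell markers. The members and lists were chosen with earlier results of these data known. The gene IDs of all 31 measured members matched a GRCm38.p6 gene table with the same symbol. The steps were tested on simulated data. The alternatives were the deposited values, ratios centred on 0, quantile normalization, floors at 0.1 and 0.4 of the trimmed mean in place of 0.2, the mean over probe sets, omission of all suffixed probe sets, omission of those shared between genes alone, and a 1.5-fold threshold. Computation used Python 3.11.15, numpy 2.4.6 and pandas 2.3.3.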

Additional observations from a re-analysis of the deposited data

Results flagged for a closer look

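Apoe was the cholesterol gene that differed past 1.5-fold in opposite directions between knockout and wild type at 4 weeks in testis and in Sertoli cells. Its log2 ratio was 0.83 in whole testis and -2.82 in primary Sertoli cells. The array designs and probe sets differ, each value rests on 1 pair of arrays, and the difference was not tested.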

How the results depend on the processing

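Each array stood alone, so no replicate could be left out. No paired analysis was possible because each group had 1 array. The median log2 ratio in Sertoli cells at 4 weeks was -0.01, and became -0.0682 on the deposited values, -0.0823 with quantile normalization and -0.0738 without probe sets whose names carry a suffix. Without those it was 0.0035 in TM4 and -0.29 between the knockout ages. For knockout cells at 10 weeks over wild type it was -0.25, against -0.21 with quantile normalization and -0.18 with the higher floor. For wild-type Sertoli cells over TM4 it was 0.21, against 0.91 on the deposited values and 0.12 over the mean of probe sets. Averaging probe sets left 0 genes 2-fold higher in testis, where the other Abca1 probe set pulls it to 0.72, and 1 gene 2-fold lower between the knockout ages. Omission of all suffixed probe sets also removed those for alternative transcripts of 1 gene (_a_at). On the Sertoli and TM4 arrays this left Srebf1, Scarb1, Apoe, Pmvk and Nr1h3 with none, and Msmo1 with 1 probe set below the floor. By construction 0 genes were then higher and 0 lower in Sertoli cells at 4 weeks, and 0 higher between the knockout ages. The same omission left 1 gene lower in Sertoli cells over TM4. An alternative chosen after seeing the data kept the _a_at probe sets and left out those shared between genes. It gave 2 genes higher in Sertoli cells at 4 weeks, a median of 0.0035 in TM4 and one of -0.29 between the knockout ages. Under both omissions Lipa turned to -0.15 in Sertoli cells over TM4. On the deposited values that comparison had 14 genes higher and 1 lower. At 1.5-fold the counts were 4 higher and 1 lower in testis, 2 and 3 in Sertoli cells at 4 weeks, 1 higher in TM4, 3 and 10 between the knockout ages, 1 and 8 at 10 weeks over wild type, and 5 lower in Sertoli cells over TM4. The cause was not tested. Between the knockout ages 97 single-gene values moved by less than the spread between probe sets and 5 by more. For Sertoli cells over TM4 these were 109 and 29, and the 2 Lipa values changed direction. Signal near the floor limits Nr1h3, Tm7sf2, Pmvk and the testis values of Lss and Dhcr7.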
